A study of Mus musculus with 9 samples.

Results

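The cytosolic ribosomal protein genes were examined in RNA sequencing of embryonic mouse midbrain. They were chosen by name: every row of the deposited table whose identifier belonged to a protein-coding mouse gene (GRCm38) called Rps or Rpl followed by a number, or called Rplp0, Rplp1, Rplp2 or Rpsa. The rule used no measured value and gave 83 genes of the 51912 in the table. Of these, 32 encode proteins of the small (40S) subunit and 51 encode proteins of the large (60S) subunit, and 6 of the 83 are paralogues named after another member. The midbrains came from C57Bl/6 embryos at E14.5 (embryonic day). The 3 genotypes were Nkx2.9 wt (wild type), Nkx2.9 het (Nkx2.9LacZ/+, with LacZ in place of exon 1 on one allele) and Nkx2.9 ko (Nkx2.9LacZ/LacZ, with LacZ on both alleles), with 3 libraries each. Each library pooled 2 midbrains, and the deposited columns were named by genotype without a replicate number, so that the libraries are called here by column, ko 1 to 3, het 4 to 6 and wt 7 to 9.

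A ribosome joins mRNA to protein synthesis. Its small subunit reads the message and its large subunit forms the peptide bond, and each subunit holds one copy of most ribosomal proteins bound to ribosomal RNA. Because the proteins are used in equal number, their genes are known for a shared high expression in dividing and growing cells, and many of their mRNAs start with a run of pyrimidines (C and U) that couples their translation to growth signals. A few members have paralogues that are expressed mainly in other tissues, such as testis or muscle.

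RefSeq gave a promoter entry for 63 of the 83 genes (75 windows), and the 60 bases around the annotated start (30 on each side, GRCm38.p6) are shown for the 3 members that followed the shared pattern of the group most closely (Rps26, Rps15 and Rps18), for 4 members that did not follow it (Rpl15, Rpl5, Rpl4 and Rpl22l1) and for Rpl9, which had the lowest p-value in the comparison of het with wt. Capitals mark the longest run of C and T in each window.
Rps26 (chr10:128626477-128626536, minus strand): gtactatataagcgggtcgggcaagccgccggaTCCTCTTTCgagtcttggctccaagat
Rps15 (chr10:80292401-80292460, plus strand): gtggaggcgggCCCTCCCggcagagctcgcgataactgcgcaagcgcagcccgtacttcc
Rps18 (chr17:33955636-33955695, minus strand): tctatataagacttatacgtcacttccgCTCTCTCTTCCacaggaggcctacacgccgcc
Rpl15 (chr14:18270957-18271016, minus strand): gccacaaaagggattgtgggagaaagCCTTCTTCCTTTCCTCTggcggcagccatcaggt
Rpl5 (chr5:107900498-107900557, plus strand): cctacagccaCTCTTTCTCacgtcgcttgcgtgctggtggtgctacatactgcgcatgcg
Rpl4 (chr9:64173357-64173416, plus strand): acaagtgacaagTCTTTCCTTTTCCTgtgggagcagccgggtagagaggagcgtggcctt
Rpl22l1 (chr3:28805478-28805537, plus strand): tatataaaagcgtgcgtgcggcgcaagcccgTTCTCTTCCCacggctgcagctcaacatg
Rpl9 (chr5:65391402-65391461, minus strand): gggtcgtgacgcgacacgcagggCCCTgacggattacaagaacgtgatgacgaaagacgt

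A run of at least 8 pyrimidines was found in 37 of the 75 member windows (49.3%) and in 22.9% of all 32851 promoter windows of the same length. The run was 9 bases long in Rps26, 11 in Rps18 and 7 in Rps15, and it was 17 in Rpl15, 14 in Rpl4, 10 in Rpl22l1 and 9 in Rpl5. Over the whole 300-base windows, the letters CCGGAA, searched on both strands, were present in 36 of the 75 member windows (48.0%) and in 14.9% of all windows, and TATAAA on both strands was present in 9.33% and 13.6%. These are matches of letters at annotated starts, which can lie some bases from the true start.

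The libraries held 1692963 to 5942192 reads in genes, with a median of 4921748. The shallowest was wt 7 and the next was het 4 with 2584074 reads, so that 1 read stood for 2.59 normalized counts in wt 7 and for 0.702 in wt 8. Nkx2-9 itself had 28 reads over all libraries, 3 to 6 in each ko library and 0 to 2 in each wt library, which is too few to check the labels, so that the direction of every comparison rests on the column names. Whether the ko and wt columns could be exchanged was not tested, and an exchange would turn the sign of every difference printed between them. En1, a midbrain-hindbrain gene, was read in every library, which accords with midbrain, the tissue on the labels. It was at 157, 188 and 194 in ko, 407, 202 and 172 in het, and 274, 225 and 322 in wt, lower in every ko library than in every wt library.

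Of the 83 members, 80 passed the minimum of a mean normalized count of 5 and entered the tests, all 32 of the 40S and 48 of the 60S. The median member had a mean normalized count of 565, against 75.9 over all 16993 genes tested, and 48 members averaged at least 500. Together they took 0.966 to 1.33% of the reads of a library. As bulk tissue was measured, fewer cells with much of an mRNA and less of it in each cell cannot be told apart. Levels of different genes are compared per kilobase of the principal transcript. On that scale Rps29 was highest at 2338 normalized counts per kilobase, followed by Rplp1 (1797), Rpl41 (1748), Rpl31 (1736) and Rps27 (1706), around a member median of 796.

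**Figure D1:**
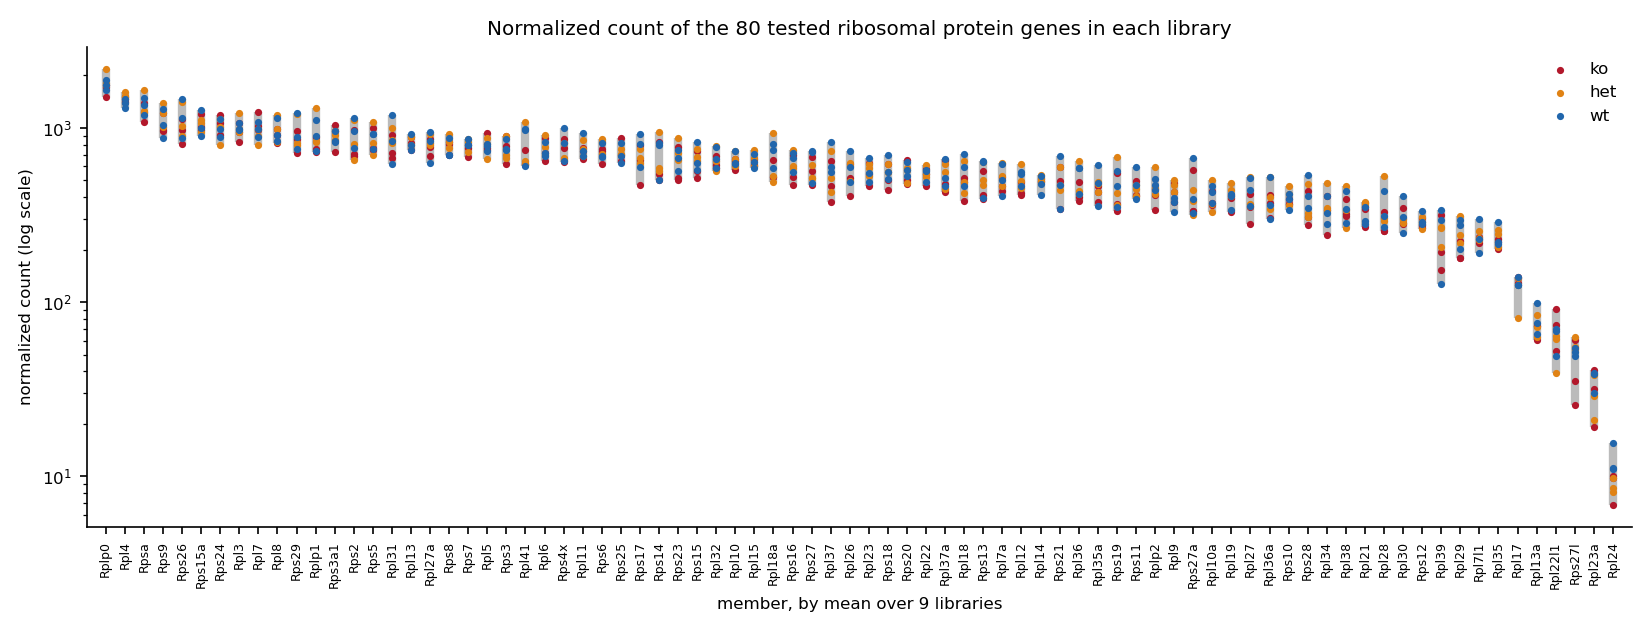
Normalized count (log axis, not divided by length) of the 80 tested members in each of the 9 libraries, coloured by genotype, with a grey bar from the lowest to the highest library. The 6 members at the right, from Rpl17 to Rpl24, lie lowest, with means from 126 down to 10.1.

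The stalk proteins, which recruit the translation factors to the large subunit, were all high. Rplp0, the base of the stalk, had the highest normalized count of all members: 1763, 1720 and 1510 in ko, 2177, 1755 and 1813 in het, and 1769, 1653 and 1884 in wt. The groups overlapped, and het 4 stood above the other libraries. Per kilobase Rplp0 reached 1313, Rplp1 1797 and Rplp2 1072. Rpl4, whose protein lines the exit tunnel of the nascent chain, was the next highest count and varied little, from 1304 in wt 9 to 1606 in het 6. Rpsa, which stabilises the small subunit and was first known as a laminin receptor, ranged from 1073 in ko 3 to 1653 in het 4.

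The members highest per kilobase were all short, and each was higher in het 4 and wt 7 than in most other libraries. Rps29, a zinc-binding 40S protein, was at 952, 863 and 719 in ko, 1204, 798 and 818 in het, and 1208, 756 and 886 in wt. Rplp1 was at 879, 729.9 and 758 in ko, 1305, 823 and 839 in het, and 1102, 733 and 899 in wt. Rpl41, the smallest ribosomal protein, was at 744, 623 and 609 in ko, 1082, 647 and 616 in het, and 988, 601 and 964 in wt. In these 3 members the genotypes overlapped. Rpl31 ranged from 620 in wt 8 to 1182 in wt 7, so that its lowest and highest libraries were both wt. Rps27 was at 676, 564 and 467 in ko, 610, 517 and 517 in het, and 740, 485 and 723 in wt, and its 4 highest libraries were wt 7, wt 9, ko 1 and het 4.

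The lowest tested members per kilobase were Rpl24 (14.9), Rpl23a (57.2), Rpl13a (70.7), Rps27l (99.9) and Rpl22l1 (114). Rpl24, a 60S protein that bridges to the small subunit, had normalized counts of 9.79, 10.1 and 6.87 in ko, 8.15, 8.54 and 9.79 in het, and 15.5, 11.2 and 11.04 in wt. Of its exon bases, 46.99% are shared with another annotated gene, Gm28037. For Rpl23a the shared part was 62.3% and for Rpl13a 35.4%. How reads that touch more than one gene were counted was not given in the sources used here, so that these levels are uncertain. Rpl35, with 66.2% shared exon bases, averaged 232 normalized counts. Of all 83 members 11 share more than 20% of their exon bases with another gene. The table also held 288 rows named as pseudogenes of these genes, 56 of which passed the minimum, and how reads that match a gene and its pseudogene were treated was not given in the sources used here.

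Among the paralogues, 3 were expressed and 3 were at or near 0. Rpl22l1, a paralogue of Rpl22, was counted at 7.16 to 16.9% of Rpl22 by library (ko 13.9% ± 4.33, het 9.79% ± 2.54, wt 11.4% ± 1.17; SD, n = 3). Rps27l was at 4.54 to 12.2% of Rps27, and Rpl7l1, which acts in ribosome assembly, at 19.2 to 28.4% of Rpl7. These shares are of counts and are not corrected for length. The Rpl7l1 share was 21.4% ± 1.91 in ko, 26.9% ± 1.35 in het and 24.3% ± 3.28 in wt. The muscle paralogue Rpl3l had 6 reads in all libraries together, and Rpl39l had 2 reads, both in het 4. Rpl10l, a testis paralogue of the X-linked Rpl10, had 0 reads in every library. Rpl10 itself was at 652 on average, from 569 in ko 3 to 733 in het 4.

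The members shifted together from library to library. Their summed normalized counts were 52511, 44852 and 40817 in ko 1 to 3, 56112, 45150 and 48143 in het 4 to 6, and 56811, 43225 and 48796 in wt 7 to 9. Every genotype held a high and a low library and the groups overlapped: the means were 46060 ± 5940 in ko, 49802 ± 5666 in het and 49611 ± 6830 in wt (SD, n = 3). The ratio of the 60S sum to the 40S sum lay between 1.12 in ko 1 and 1.25 in ko 3, with 1.19 ± 0.068 in ko, 1.21 ± 0.017 in het and 1.18 ± 0.047 in wt. For each gene the deviation of a library was taken as its log2(normalized count + 1) minus the mean of the other 8 libraries. In wt 7 the median deviation of the 80 members was 0.28, a 1.22-fold higher level, with 75 of 80 members above 0, while the median of all genes tested was 0.00 and 50.0% of them lay above 0. The median was 0.28 for 40S and 0.28 for 60S members. Against the other 2 wt libraries alone the median deviation of wt 7 was 0.32, and wt 7 was the highest wt library for 65 of 80 members, against 37.6% of all genes.

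Column wt 7 was not alone. The median deviation was 0.24 in het 4 (66 of 80 members above 0) and 0.14 in ko 1 (65 above 0), and it was lowest at -0.27 in ko 3 (5 of 80 above 0), then -0.16 in wt 8, -0.11 in het 5 and -0.11 in ko 2. In het 6 it was 0.01 and in wt 9 it was 0.02. The highest library of a member was het 4 for 31 members and wt 7 for 30 (22.1% and 17.0% of all genes), and the lowest was ko 3 for 38 (9.22% of all genes). The 2 shallowest libraries were the highest, but ko 1, with 5627092 reads, came next.

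**Figure D2:**
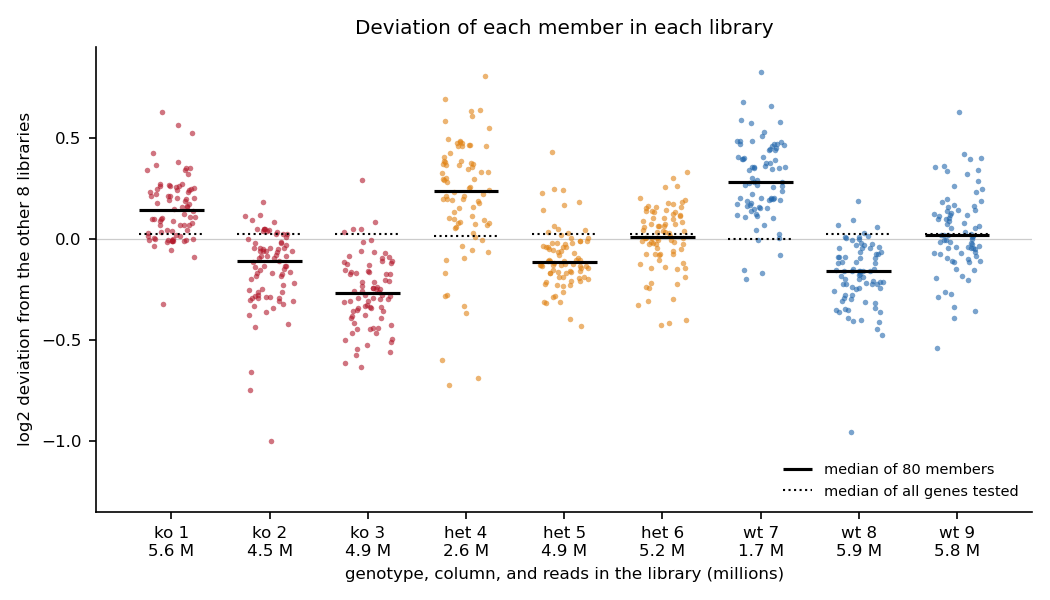
Log2 deviation of each of the 80 members from the mean of the other 8 libraries (vertical axis), by library, with the genotype, column and reads of the library below. Solid bars, the member medians, run from -0.27 in ko 3 to 0.28 in wt 7, and dotted bars, the medians of all genes tested, stay near 0.

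Other measures moved with the members, and their part in the shift was not tested. Rn7sk, a small nuclear non-coding RNA and the most read gene in the table, took 1.78% of the reads in wt 7, 1.75% in het 4, 1.70% in ko 1 and 1.59% in wt 9, and 0.708 to 0.903% in the other 5 libraries. The same 4 libraries had the highest member medians, in the same order. Among 812 other genes with a principal transcript shorter than 1 kilobase, the median deviation was 0.17 in wt 7, 0.25 in het 4, 0.12 in ko 1 and -0.14 in ko 3. The 77 mitochondrial ribosomal protein genes tested, whose products form a separate ribosome, had medians of 0.20 in wt 7, 0.08 in het 4 and -0.17 in ko 3. Markers of other cell types differed too. Haemoglobin genes of red blood cells (6 above the minimum) summed to 2211.5 in het 4, 2102 in wt 7 and 1822 in ko 1 and to 1427 to 1767 elsewhere. The 4 choroid plexus genes tested were low, with sums of 82.8 in wt 7, 26.1 in het 4 and 36.9 in ko 1 and 46.3 to 71.4 elsewhere. The sum was highest in wt 7 and lowest in het 4, but the genes differed. Kl, Ttr and Folr1 were highest in wt 7 (31.0, 20.7 and 18.1), while Otx2os1 was lowest there (7.76). In het 4 the deviation was 0.17 for Ttr and below 0 for the others. The 8 neuron genes summed to 27793 in het 4 and 30327 in wt 7 and to 31899 to 34112 elsewhere, with median deviations of -0.20 and -0.02 in those 2 libraries. Of the 8, Dcx, Map2, Stmn2 and Elavl4 were below 0 in both, Tubb3, Gap43 and Elavl3 were above 0 in both, and Snap25 was below in het 4 and above in wt 7. The 6 tested forebrain genes (none called in any comparison) had median deviations of -1.28 in het 4, -0.56 in wt 9 and -0.46 in ko 2, and 0.23 in wt 7 to 1.32 in het 6 in the other libraries. Their Dlx1 was at 58.0, 11.9 and 64.4 in ko, 0, 61.5 and 69.3 in het, and 51.7, 44.9 and 4.42 in wt. The 10 proliferation genes summed to 600 in het 4 and 654 in wt 7 and to 707 to 866 elsewhere. Of these genes, Mcm3 (0.73) and Mcm5 (0.45) had deviations above 0 in wt 7, as had Mcm2 (0.08) and Mcm5 (0.16) in het 4. The others were below 0 in those libraries.

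Within the shift, the members of het 4 and wt 7 were ordered differently. In het 4 the deviation was higher in members of higher GC content: over the 80 members r was 0.62, and over 13316 genes with a principal transcript it was 0.49. The 20 members of lowest GC content (at most 48.4%) had a median of 0.06 in het 4 and the 20 of highest (at least 54.7%) had 0.41. In ko 1 the order was the other way, with r = -0.46 and medians of 0.25 and 0.06. In wt 7 r with GC content was 0.12, and the deviation was lower in longer transcripts (r with log length = -0.40 over the members, -0.04 over the 13316 genes). These correlations are across genes of one library, which are not independent, and describe the libraries. With GC content and length regressed out of every library, the median deviation of wt 7 was 0.32.

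**Figure D3:**
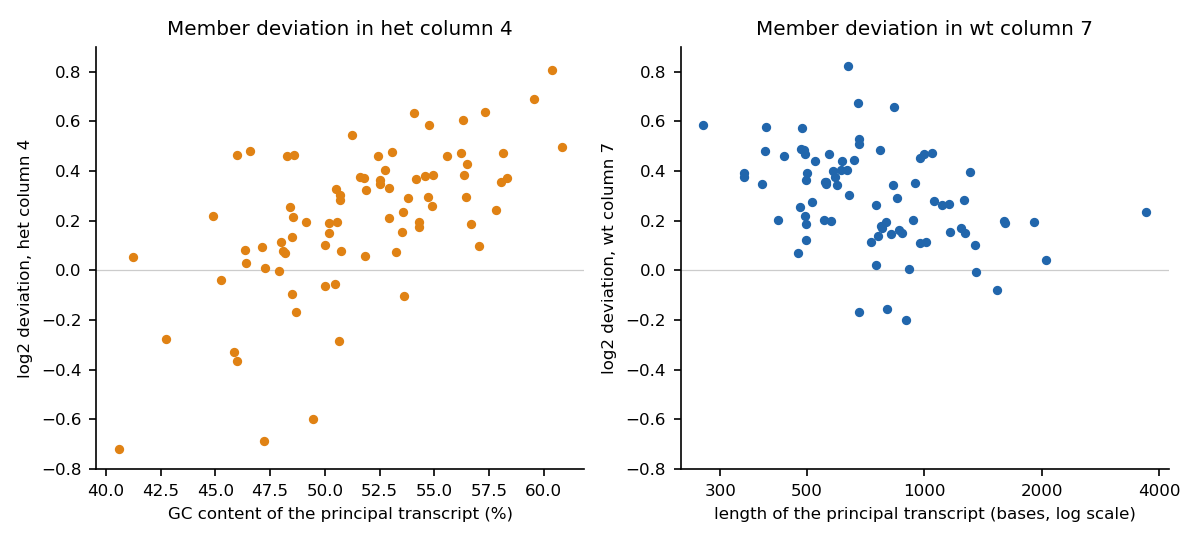
Log2 deviation of the 80 members in het 4 against GC content (left) and in wt 7 against transcript length on a log axis (right). Points lie higher at higher GC content in het 4, from -0.72 for Rpl22l1 to 0.81 for Rpl28, and in wt 7 all members but 5 lie above 0.

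Co-variation over the 9 libraries was a property of most members. The median Pearson r of log2 levels between 2 members was 0.62, and 86.2% of the pairs were above 0. It was 0.71 within the 40S, 0.51 within the 60S and 0.63 between them. Between mitochondrial ribosomal protein genes it was 0.07, between 36 translation factors 0.09, between 40 ribosome assembly genes -0.00 and between 7500 genes with a mean of at least 100 it was 0.01. Without wt 7 the member median was 0.55, and without het 4 and wt 7 it was 0.52. All pairs share the same 9 libraries, their depth and their scaling, so that these values are descriptions. Over the 9 libraries the median member had an SD of 0.21 on the log2 scale, of which counting alone would give 0.06. With the library medians of the members taken off, the SD was 0.15. The median SD of all genes tested was 0.28.

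Of the genes outside the naming rule whose products also sit on the ribosome, Fau and Rack1 were read alongside. Fau, whose product carries a 40S protein, was at 531, 385 and 359 in ko, 601, 403 and 417 in het, and 512, 403 and 453 in wt. Rack1, a scaffold on the small subunit, was at 1187, 983 and 879 in ko, 1266, 957 and 996 in het, and 1221, 999.97 and 1177 in wt. Both were highest in het 4 and lowest in ko 3.

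Each member was also compared with the median of the other members over the 9 libraries. The median of these r values was 0.82 and 64 of 80 exceeded 0.5. Closest were Rps26 (0.97), whose protein touches the mRNA near the exit channel, and Rps15 (0.96) and Rps18 (0.95), both in the head of the small subunit. Rps26 was at 1125, 966 and 806 in ko, 1410, 899 and 1018 in het, and 1466, 874 and 1142 in wt. Rps15 was at 736, 566 and 512 in ko, 756, 643 and 681 in het, and 830, 571 and 626 in wt. Both were highest in wt 7 and lowest in ko 3. Their windows printed above hold pyrimidine runs of 9 and 7 bases.

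**Figure D4:**
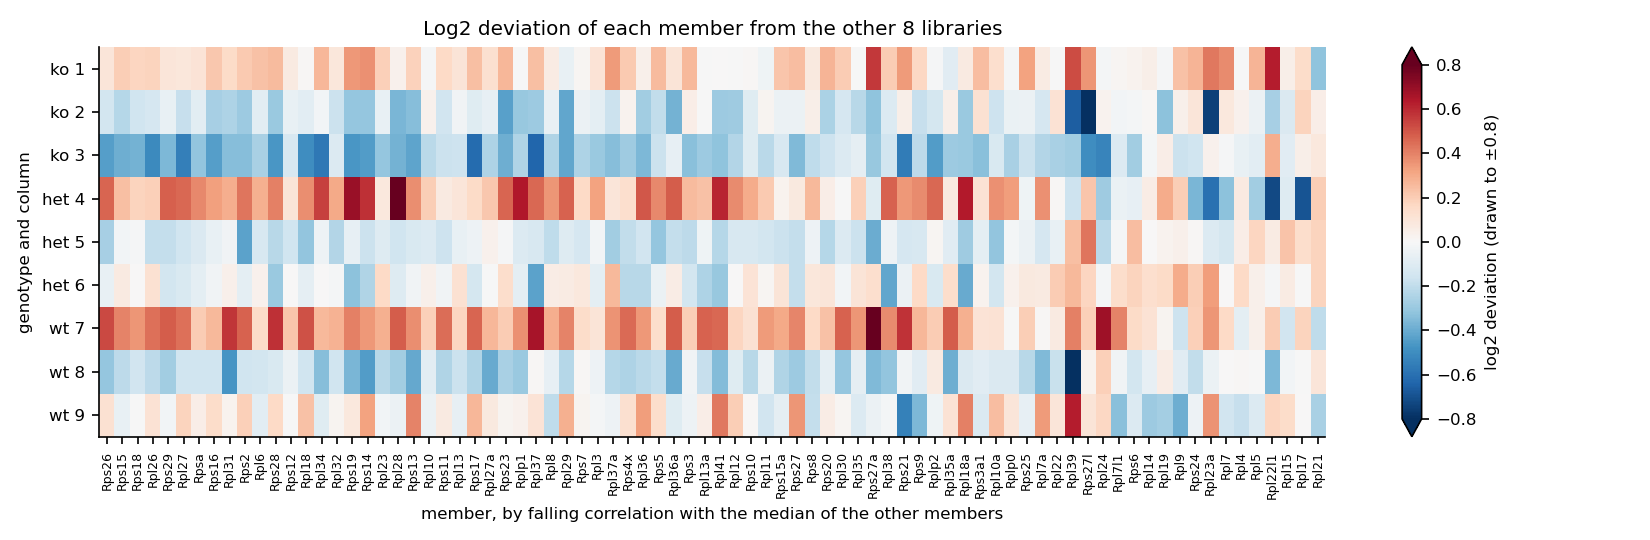
Log2 deviation (colour, drawn to ±0.8) of the 80 members (columns, from the highest to the lowest correlation with the other members) in the 9 libraries (rows). The rows ko 1, het 4 and wt 7 are mostly red and ko 2, ko 3, het 5 and wt 8 mostly blue, and the pattern is lost at the right, from Rpl7 to Rpl21.

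In 6 members the correlation with the others was below 0, all of the 60S: Rpl21 (-0.41), Rpl17 (-0.36), Rpl15 (-0.23), Rpl22l1 (-0.05), Rpl5 (-0.05) and Rpl4 (-0.03). Rpl21 was at 271, 341 and 349 in ko, 373, 370 and 369 in het, and 292, 351 and 281 in wt. It was lowest in ko 1 and near its middle in ko 3, and it was the lowest member of all in wt 7, with a deviation of -0.20 and a counting error of 0.14. Rpl17, at the tunnel exit, was at 137, 140 and 129 in ko, 81.5, 137 and 125 in het, and 140, 125 and 125 in wt. Without het 4, in which its deviation was -0.69, its counts spanned 125 to 140. Rpl15, a large protein within the core of the subunit, ranged from 587 in wt 7 to 744 in het 5. Rpl5, which binds 5S rRNA, was at 927, 763 and 746 in ko, 662, 872 and 807 in het, and 807, 783 and 733 in wt, highest in ko 1 and lowest in het 4. For Rpl21, Rpl17 and Rpl15, 15, 10 and 5 annotated pseudogenes carry the gene's name.

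The largest spread left after the library medians were removed, among the 75 members with a mean of at least 100, was that of Rpl39, a short X-linked protein of the exit tunnel. It was at 317, 153 and 193 in ko, 207, 266 and 269 in het, and 295, 127 and 338 in wt, so that the widest gap was between wt 8 and wt 9, within one genotype. Its SD was 0.42 on the log2 scale. Next were Rpl17 (0.34), Rpl21 (0.29), Rps27a (0.28) and Rpl37 (0.24). Rps27a, which encodes ubiquitin fused to a 40S protein, was at 573, 331 and 335 in ko, 381, 317 and 439 in het, and 672, 325 and 392 in wt. It had the highest deviation of any member in wt 7 (0.82, counting error 0.09) while in het 4 it was at -0.09. Rpl37, a zinc-binding 60S protein, was at 644, 463 and 375 in ko, 737, 513 and 426 in het, and 833, 557 and 594 in wt, and its deviation in wt 7 was 0.66. Rpl24 was at 0.68 in wt 7, which rests on a count of few reads (counting error 0.59). Besides Rpl21, the lowest in wt 7 were Rpl9 (-0.17) and Rpl15 (-0.16), and the only others below 0 were Rpl4 (-0.08) and Rplp0 (-0.01).

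The question of the genotype comparison was whether loss of Nkx2.9 went with a change in the midbrain transcriptome. Between ko and wt, 67 of the 80 members had a log2 fold change below 0 (47.7% of all genes tested had one) and the member median was -0.11, against 0.01 over all genes. The members move together by library, so that 67 is not a count of separate changes. By limma on log2(normalized count + 1), 1 of 80 members was called at an unadjusted p under 0.05, against 2.60% of all genes tested, and 0 passed after Benjamini-Hochberg adjustment over all genes. edgeR and DESeq2 on the recovered reads also called 1 at the unadjusted threshold and 0 after adjustment. The groups did not overlap in 1 member, Rpl24, against 9.52% of all genes. For 78 of 80 members both ends of the 95% interval lay within 1 log2 unit of 0, and for 45 they lay within 0.5. The median standard error was 0.16. Without wt 7 the median fold change was 0.00, without ko 3 it was -0.04, and without ko 1 or wt 8 it was -0.20. With log2 total reads as a covariate it was -0.04. In the same way, 0 members were called without ko 2, ko 3, wt 7 or wt 9, 2 without het 6, 9 without ko 1 or het 4 and 15 without wt 8.

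Rpl29, a basic 60S protein, was the called member. It was at 224, 179 and 179 in ko, 311, 218 and 241 in het, and 297, 202 and 278 in wt. Of the ko libraries 2 lay below every wt library, while ko 1 lay above wt 8. The log2 fold change was -0.40 ± 0.18 (SE; 95% interval -0.78 to -0.02), with an unadjusted limma p of 0.0386 and an adjusted p of 1.00, and the exact two-sided permutation test of the 6 values gave p = 0.2, where 0.1 is the smallest p that 3 against 3 can give. In the alternatives its limma p ran from 0.00703 to 0.149, and without wt 7 it was 0.149. The next lowest p-values among members lower in ko were those of Rpl37 (-0.43, unadjusted limma p 0.0622) and Rpl18 (-0.34, 0.0741), and both followed the library shift closely (r of 0.86 and 0.91 with the other members). Rpl37 was called without ko 1, het 4, het 6 or wt 8, with no minimum count, with only the 6 libraries compared and with GC content and length regressed out, and its fold change ran from -0.64 without ko 1 to -0.25 without ko 3. Rpl18 was called without het 4 or wt 8, with only the 6 libraries compared and with GC content and length regressed out, and its fold change ran from -0.50 without wt 8 to -0.20 without wt 7. Upward, the lowest p-values were those of Rpl9 (0.22, p 0.117), Rpl7 (0.13, p 0.313) and Rpl22l1 (0.19, p 0.475), none of which passed limma's test. Without ko 1 these 3 were 0.13, 0.03 and 0.01. The lowest fold change was that of Rpl24, at -0.46 ± 0.43, which rests on few reads.

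**Figure D5:**
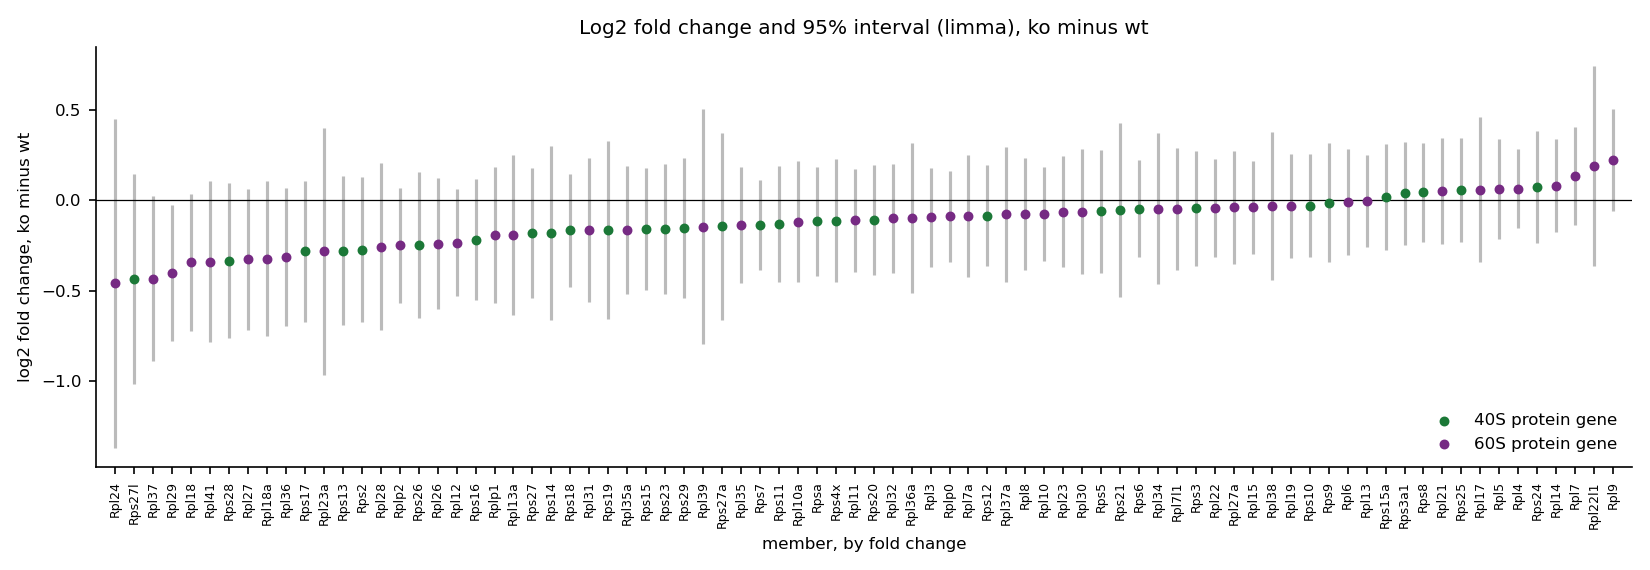
Log2 fold change of ko minus wt for the 80 tested members (points, by subunit) with the 95% interval of limma (grey lines). Of the points 67 lie below 0, and the interval of 1 member, Rpl29, lies wholly on one side of 0.

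Between het and wt the member median was -0.01 (all genes -0.01), with -0.11 without wt 8, -0.08 without het 4, 0.08 without het 5 and 0.10 without wt 7, and 43 of 80 members had a fold change below 0, against 51.4% of all genes tested. By limma 1 of 80 members was called, against 2.78% of all genes, and 0 after adjustment, with 1 and 0 by edgeR and by DESeq2. It was Rpl9, a 60S protein near the factor-binding site, at 469, 427 and 500 in het, 375, 394 and 327 in wt, and 480, 426 and 374 in ko. Every het library lay above every wt library, and the ko libraries overlapped with both. The log2 fold change was 0.35 ± 0.13 (95% interval 0.07 to 0.63), with an unadjusted limma p of 0.0182 and an adjusted p of 1.00. The exact permutation p was 0.1, the smallest possible. The limma p of Rpl9 was 0.069 without het 6 and 0.0894 without wt 9. The het and wt groups did not overlap in 4 members, Rpl9, Rpl21 and Rpl4 upward and Rpl24 downward, against 6.91% of all genes. Rpl4 was at 1522, 1505 and 1606 in het and 1389, 1469 and 1304 in wt, with a fold change of 0.16 ± 0.10. Rpl21 had one of 0.27 ± 0.14 (unadjusted limma p 0.0662). The 3 lowest p-values downward, Rps27, Rpl37 and Rps4x, had fold changes of -0.22, -0.26 and -0.18 and did not pass. Leaving out a library moved them from -0.12 (wt 7) to -0.42 (wt 8) for Rps27, from -0.08 (wt 7) to -0.48 (het 4) for Rpl37 and from -0.03 (wt 7) to -0.34 (wt 8) for Rps4x, and Rps27 without wt 8 and Rpl37 without het 4 were called. Rpl21 was called without wt 8 (0.37). Without het 4 the comparison called 8 members, and without wt 8 it called 3. Without het 6 or wt 9 it called 0.

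Between ko and het, which share those libraries with the comparisons above, the median was -0.13 (all genes 0.02), and 67 of 80 members had a fold change below 0, against 46.9% of all genes. The median was -0.03 without ko 3, -0.04 without het 4, -0.19 without het 5, -0.21 without ko 1 and -0.07 with log2 total reads as a covariate. By limma 3 of 80 were called, against 2.64% of all genes, and 0 after adjustment, and edgeR and DESeq2 each called 2, Rpl29 and Rpl7, with 0 after adjustment. Rpl29 was lower in ko (-0.39 ± 0.18, unadjusted limma p 0.0426), though ko 1 lay above het 5, and without het 4 the fold change was -0.25 with a limma p of 0.159. Rpl7, which binds near 5S rRNA in the large subunit, was higher in ko, at 1235, 1029 and 973 against 797, 895 and 981 in het (0.27 ± 0.13, p 0.0485). Its lowest library was het 4, without which its fold change was 0.20 with a limma p of 0.115, and without ko 1 it was 0.17 with a limma p of 0.233. With GC content and length regressed out it was 0.22 with a limma p of 0.0448. Rps27l was at 60.2, 25.6 and 35.2 in ko and 55.4, 63.2 and 53.8 in het (-0.58 ± 0.27, p 0.0495), with ko 1 above 2 of the het libraries. Its fold change was -0.31 with a limma p of 0.271 without ko 2, and -0.91 with a limma p of 0.0033 without ko 1. In 15 of 22 alternatives Rps27l was not called. The groups did not overlap in 2 members, Rpl21 and Rpl4, both lower in ko, against 8.71% of all genes. The others named by p-value, Rpl22l1 (0.39) and Rpl17 (0.27) upward and Rps23 (-0.34) downward, did not pass. Without het 4 they were 0.17, 0.05 and -0.22. Rpl22l1 was called without ko 2 (0.61), and Rps23 without ko 1 (-0.54) or het 5 (-0.44), with no minimum count and with GC content and length regressed out. Leaving out a library gave 0 calls (wt 9) to 6 (ko 1), and 1 without ko 2, ko 3, het 4 or wt 8.

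The 4 X-linked members were Rpl10, Rpl36a, Rpl39 and Rps4x. Rpl36a was at 409, 305 and 370 in ko, 518, 342 and 400 in het, and 520, 300 and 362 in wt. Rps4x was at 859, 766 and 633 in ko, 818, 667 and 657 in het, and 996, 647 and 816 in wt. In both, the genotypes overlapped and wt 7 was the highest library. None of the 4 was called in any comparison.

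Related gene lists were read from the same fit. Between ko and wt, where 2.60% of all genes tested were called, limma called 4 of 77 mitochondrial ribosomal protein genes, all lower in ko, with log2 fold changes of -0.57 (Mrpl57), -0.40 (Mrpl4), -0.54 (Mrps24) and -1.09 (Mrps34). It called 1 of 40 ribosome assembly genes, Gar1, a protein of the particles that modify ribosomal RNA (-0.80 ± 0.31), and 0 of 36 translation factors. Of 10 p53 target genes, which are known to respond when free ribosomal proteins bind Mdm2, 0 were called, and their median fold change was 0.05. Among the marker lists, 3 of 11 midbrain and midbrain-hindbrain genes were called, En1 (-0.60), Pax7 (-0.63) and Pitx3 (-0.71). All 3 were lower in the columns named ko. The list median was -0.18, and 4 of the 11 were higher in ko, Th (0.25), Nr4a2 (0.21), Otx2 (0.04) and Lmx1b (0.01). The paper had picked out En1, En2 and Pax7 from these same data, so that the count of calls is no test of the list. Of the 4 choroid plexus genes tested 1 was called, Kl (-1.25), with a list median of -0.78. The neuron and proliferation lists had 0 calls of 8 and of 10. No call in these lists passed adjustment. Between het and wt 1 of the 77 was called (Mrps34, -0.97), against 2.78% of all genes, and between ko and het 3 were, against 2.64% (Mrpl57 and Mrpl11 lower, Mrps17 higher), while the assembly, translation factor and p53 lists had 0 calls in both. These genes are named for their values.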

How the data were processed

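RNA of dissected midbrains was depleted of ribosomal RNA and sequenced. Per the paper's methods the authors aligned reads with HISAT2 to GRCm38, counted them with featureCounts and used DESeq2. Versions, annotation release, strand and multi-mapping settings are not given in the sources used here. The labels and the paper differ on the RNA isolation kit, and the series title names cortex where the labels name midbrain. The deposited signal is a normalized count, a read count divided by a size factor per library. Whole reads were recovered for 100.0% of 210686 values above 0 (tolerance 0.001). The authors' 3 tables of DESeq2 comparisons (fold changes and p-values) were not used. Symbols came from GENCODE vM21 (51719 of 51912 identifiers matched).

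All 9 libraries entered one limma fit (limma 3.58.1, R 4.3.3; eBayes with trend, two-sided) on log2(normalized count + 1) over 16993 genes with a mean of at least 5; fold changes are on that scale. A call is an unadjusted p under 0.05. In simulated data for ko and wt with 16993 genes, limma called 167 of 200 genes changed by 1 log2 unit and 4.79% of the others. Each gene was drawn independently there, so that no shift shared by a group of genes was simulated. Changes as small as those of the members were not simulated either. edgeR 4.0.16 and DESeq2 1.42.0 on recovered reads were alternatives, as were pseudocounts, minimums, scalings and leaving out libraries. Length and GC content are those of the principal transcript. Named members were those with the lowest p in each direction, the highest and lowest per kilobase, those under the minimum, the widest spread, the highest and lowest in wt 7, the paralogue pairs and the X-linked. Rpl4, Rpl5, Rpl15, Rpl28, Rpl35, Rps15, Rps18, Rps26, Rplp0, Rplp2 and Rpsa were named after their values were seen. The members and lists were chosen with earlier results of these data known. The p-values measure only the spread between these libraries, and intervals of counts cover counting error only.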

Additional observations from a re-analysis of the deposited data

How the results depend on the processing

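No paired analysis was possible because the columns carry no replicate numbers. The count of members called depended on the settings. Between ko and wt (1 in the fit as reported) it was 2 with no minimum count, 6 with only the 6 libraries compared, 0 with log2 total reads as a covariate and 0 to 15 with one library left out. Between het and wt (1) it was 2 by eBayes without trend and 0 to 8 with one library left out. Between ko and het (3) it was 1 with only the 6 libraries compared, 0 by eBayes without trend and 0 to 6 with one library left out. In alternatives chosen after seeing the data, regressing out GC content and length gave 8 calls between ko and wt and 6 between ko and het, and leaving out het 4 and wt 7 together gave 3 between het and wt. The cause was not tested. The median fold change ran from -0.20 to 0.00 (ko and wt), -0.11 to 0.10 (het and wt) and -0.21 to -0.03 (ko and het). The median deviation of wt 7 stayed between 0.28 and 0.32 and the median pairwise r between 0.49 and 0.68. In wt 7 the median member had 270.0 reads, which limits single members there, and 3 libraries a genotype limit every p-value.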
